A study of Rattus norvegicus with 12 samples.

Results

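Matricellular and elastic fibre genes encode a part of the non-collagen extracellular matrix and enzymes that act on the matrix. Of these genes, 10 were chosen by symbol: Postn, Fn1, Fbn1, Sparc, Tnc, Thbs1, Thbs2, Lox, Loxl1 and Eln. A gene was followed where a row of the array table was annotated with that symbol alone. This held for 8 of the 10, each with 1 row, among 18166 genes tested in all. Tnc and Thbs1 had no such row and were not analysed here. RNA was measured in rat kidney after IRI, ischemia-reperfusion injury, a stop of the kidney's blood flow followed by its return. The 4 groups of 3 arrays were anti-miR-182 at day 7, placebo at day 7, anti-miR-182 at day 2 and placebo at day 2. Anti-miR-182 is an inhibitor of the microRNA miR-182. All 12 animals had the injury, and no uninjured kidney was analysed here, so every difference is between injured kidneys. Each array carried its own animal code, and the labels state neither strain, sex and age nor how much inhibitor was given and when. P-values measure the spread between these arrays.

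Matricellular proteins are secreted into the matrix and act on cells through integrins and growth factors more than they bear load. Elastic fibres consist of an elastin core laid on fibrillin microfibrils and fixed by enzymes of the lysyl oxidase family, while fibronectin gives the early scaffold on which other matrix assembles. In injured kidney, fibroblasts and myofibroblasts of the interstitium deposit much of this matrix, and periostin is widely used as a marker of renal matrix deposition. In whole kidney tissue, fewer cells of a type and less RNA per cell cannot be told apart.

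The sequence of the inhibited microRNA is shown because it defines the treatment, with the seed, bases 2 to 8, in capitals. The promoter stretches shown are those of Postn, Sparc and Loxl1, whose windows held a searched motif, which is in capitals. Whether a motif bears on a gene's signal was not tested. All come from RefSeq, build GRCr8, and are written 5′ to 3′.
rno-miR-182 (chr4:59752249-59752273, minus strand): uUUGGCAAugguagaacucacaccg
Postn promoter (chr2:140678005-140678034, plus strand): agcccagagctcTATAAAttcagctctcta
Sparc promoter (chr10:40038832-40038861, minus strand): taaacccctccaCATTCCtgcagcccttca
Loxl1 promoter (chr8:67612393-67612422, minus strand): aactccctgcctCATTCCcttcctcctaag
Promoter windows, 250 bases before to 50 after a gene's start, were listed for 4 of the 8 measured genes: Postn, Fbn1, Loxl1 and Sparc. Both strands were searched for 5 motifs that overlap no other motif of the search: the TATA box TATAAA, the GC box GGGCGG, the AP-1 element TGACTCA, the M-CAT element CATTCC and the SMAD element GTCTAGAC. Among all 33469 windows, TATAAA was in 14.2%, GGGCGG in 33.1%, TGACTCA in 4.63%, CATTCC in 14.2% and GTCTAGAC in 0.197%. TATAAA stood in the Postn window, 44 bases before the start the table uses. Another annotated Postn start lies 37 bases upstream of that window. CATTCC stood in the Loxl1 window 186 bases and in the Sparc window 33 bases before the start. None of the 5 motifs was in the Fbn1 window, and the GC box, AP-1 and SMAD letters were in none of the 4 windows.

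Signals are log2 values, so a difference of 1 is a factor of 2 on the linear scale. Array medians lay between 5.84 and 5.93 at day 7 and between 5.98 and 6.10 at day 2. Days lay apart on the first principal component (51.9% of the variance). On the second (10.2%), anti-miR-182 day 2 replicate 3 stood apart at -29.41, while the other 11 arrays lay between -9.18 and 15.4. Placebo day 7 replicate 2 had the highest signal of its day for 7 of the 8 members, and several differences are also given without either array or without both. It was singled out by these member signals, and on the second component it lay within the range of the other arrays. Both are called the arrays that stood apart below. The row annotated to Mir182, the gene of the inhibited microRNA, was higher by 1.45 ± 0.17 (SE) over both days with anti-miR-182, and it was the 1 gene of 18166 (0.0055%) that passed that comparison in limma (adjusted p = 0.0104). Its arrays did not overlap between treatments on either day, so it sets the labelled treatments apart, although the row measures the microRNA's gene and not its activity. The Mir182 row is dim, with a mean below the lower quartile of gene means (5.47).

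**Figure D1:**
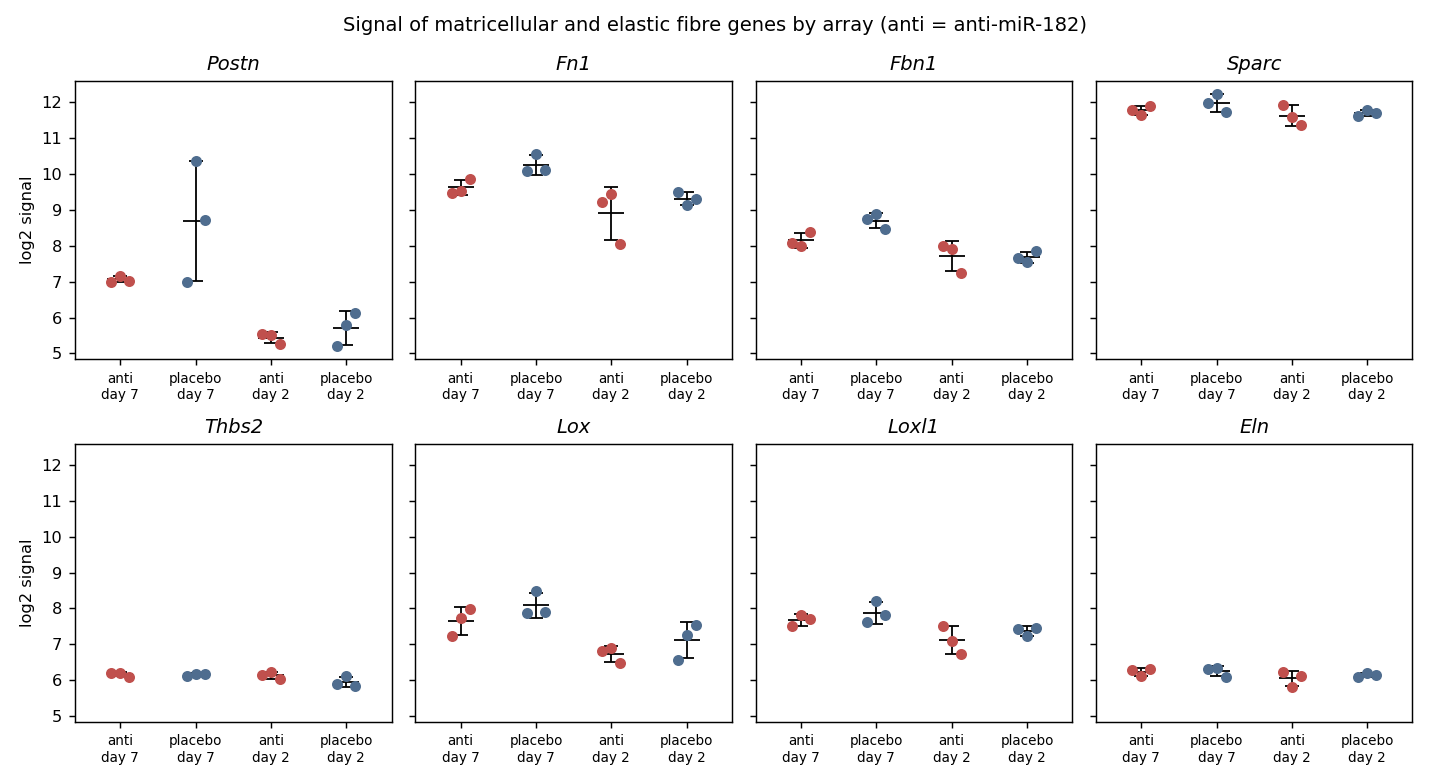
Log2 signal of the 8 measured genes on each of the 12 arrays, with points for single arrays and a black line and bars for mean ± SD of 3 arrays. Postn in placebo kidneys at day 7 ranges from 7.001 to 10.36, whereas under anti-miR-182 at day 7 it ranges from 6.99 to 7.16.

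Among the matricellular genes, Postn had the widest spread. Postn encodes periostin, which binds integrins and helps collagen crosslinking. Its log2 signals at day 7 were 6.99, 7.16 and 7.03 under anti-miR-182, against 7.001, 10.36 and 8.71 in placebo. At day 2 they were 5.54, 5.51 and 5.27 under anti-miR-182, against 5.20, 5.78 and 6.14 in placebo. The placebo array with the lowest signal at day 7 lay among the anti-miR-182 arrays, and the other two lay above all of them. Within the anti-miR-182 group at day 7 the animals differed by 1.12-fold, and within the placebo group by 10.2-fold. The SD was 0.085 in the first and 1.68 in the second (n = 3 each), which placed Postn at the 24.9th and the 99.98th percentile of all genes for SD in those groups.

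Sparc, which encodes osteonectin, a collagen-binding matricellular protein, was among the brightest rows of the array (99.7th percentile of gene means). Its signals at day 7 were 11.775, 11.65 and 11.89 under anti-miR-182, against 11.97, 12.24 and 11.73 in placebo. At day 2 they were 11.93, 11.58 and 11.36 under anti-miR-182, against 11.62, 11.77 and 11.70 in placebo. Treatments overlapped on both days. Thbs2 encodes thrombospondin 2, a matricellular protein known in mice for limiting angiogenesis and collagen fibril assembly. Its signals were 6.20, 6.19 and 6.10 under anti-miR-182 and 6.12, 6.18 and 6.18 in placebo at day 7. At day 2, Thbs2 read 6.14, 6.23 and 6.04 under anti-miR-182, against 5.89, 6.12 and 5.85 in placebo. The 12 Thbs2 values span little, and its SD within groups was at percentile 6.66 of all genes. Its row lay at percentile 41.2 for mean signal, so a dim row and a stable gene cannot be told apart here.

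Fn1 encodes fibronectin, the adhesive glycoprotein of the early matrix. It had signals of 9.48, 9.53 and 9.86 under anti-miR-182 at day 7, against 10.08, 10.57 and 10.11 in placebo. At day 2 it had 9.21, 9.45 and 8.05 under anti-miR-182, against 9.49, 9.12 and 9.31 in placebo. All 3 anti-miR-182 arrays at day 7 lay below all 3 placebo arrays, while the day 2 arrays overlapped. The day 2 value of 8.05 is from anti-miR-182 replicate 3, the array that stood apart on the second component.

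Fbn1 encodes fibrillin 1, the main protein of microfibrils. Its signals at day 7 were 8.07, 7.98 and 8.39 under anti-miR-182, against 8.74, 8.88 and 8.47 in placebo, again with no overlap. At day 2 the arrays overlapped, with 8.003, 7.91 and 7.24 under anti-miR-182 against 7.65, 7.55 and 7.85 in placebo. Eln encodes elastin, which forms the elastic core. Its signals at day 7 were 6.28, 6.11 and 6.30 under anti-miR-182, against 6.32, 6.34 and 6.09 in placebo. At day 2, Eln read 6.23, 5.82 and 6.11 under anti-miR-182, against 6.08, 6.21 and 6.14 in placebo. Treatments overlapped for Eln on both days, and its row lay at percentile 43.0 of gene means.

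Lox encodes lysyl oxidase, which oxidises lysines of elastin and collagen so that they crosslink. Its signals at day 7 were 7.24, 7.75 and 7.99 under anti-miR-182, against 7.86, 8.49 and 7.90 in placebo. At day 2 they were 6.80, 6.90 and 6.48 under anti-miR-182, against 6.57, 7.27 and 7.54 in placebo. Treatments overlapped on both days, and the day 2 placebo arrays differed by 1.96-fold among themselves. Loxl1 encodes a lysyl oxidase relative that mice need for elastic fibre upkeep. It had signals of 7.51, 7.81 and 7.71 under anti-miR-182 at day 7, against 7.62, 8.22 and 7.81 in placebo. At day 2, Loxl1 had 7.51, 7.10 and 6.74 under anti-miR-182, against 7.43, 7.22 and 7.46 in placebo. These groups overlapped as well.

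The comparison of anti-miR-182 with placebo at day 7 asks whether the inhibitor changed these genes a week after injury. None of the 8 passed limma's test at an adjusted p under 0.05, and none of the 18166 genes did (0% higher and 0% lower), while 593 genes had an unadjusted p under 0.05. The fitted differences were lower with anti-miR-182 for 7 of the 8 and higher for Thbs2 alone, with a median of -0.32 on the log2 scale beside -0.00078 over all genes. Postn had the greatest, -1.63 ± 0.55 (SE, n = 3 each), or 0.323-fold, with a 95% interval from -2.80 to -0.46. Fbn1 differed by -0.55 ± 0.19 (interval -0.95 to -0.15) and Fn1 by -0.63 ± 0.27 (interval -1.22 to -0.037). Those 3 genes had unadjusted limma p-values of 0.0100, 0.0112 and 0.0387, and each had an adjusted p of 0.999. Fn1 and Fbn1 were the members whose treatments did not overlap, 2 of 8, beside 3.75% of all genes that were lower on every anti-miR-182 array and 3.5% that were higher.

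For the other five, the day 7 differences were -0.43 ± 0.25 for Lox, -0.21 ± 0.19 for Loxl1, -0.20 ± 0.16 for Sparc, -0.02 ± 0.12 for Eln and 0.0039 ± 0.11 for Thbs2. Their 95% intervals all included 0. The Eln interval ran from -0.28 to 0.25 and the Thbs2 interval from -0.23 to 0.23, so that changes of a full log2 unit in row signal lay outside both. This bounds the row signal and not the transcript, since both rows lay below the median of gene means and their signal over background is not known. The sign for Eln turned after quantile normalization (0.0028) and after centring each array on its median (0.00087).

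The Postn difference at day 7 rested on which placebo animals were counted. Without placebo replicate 2 it was -0.80, and without placebo replicate 1 it was -2.47 with an adjusted p of 0.0758. Without placebo replicate 2, Sparc, Lox and Loxl1 came to -0.07, -0.23 and -0.04, and without anti-miR-182 replicate 1, Lox came to -0.22. Fn1 and Fbn1 kept values between -0.74 and -0.47 and between -0.67 and -0.46 over all arrays left out in turn. At day 7, 2 arrays of each treatment came from animals numbered under 90, and among these alone the differences were -2.46 for Postn, -0.83 for Fn1, -0.70 for Lox and -0.65 for Fbn1. Loxl1 had -0.36, Sparc -0.27, Eln -0.017 and Thbs2 0.016. This subset leaves out placebo replicate 1, the placebo array with the lowest Postn signal. The 1 array of each treatment from a higher-numbered animal gave Postn signals of 7.03 under anti-miR-182 and 7.001 in placebo.

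**Figure D2:**
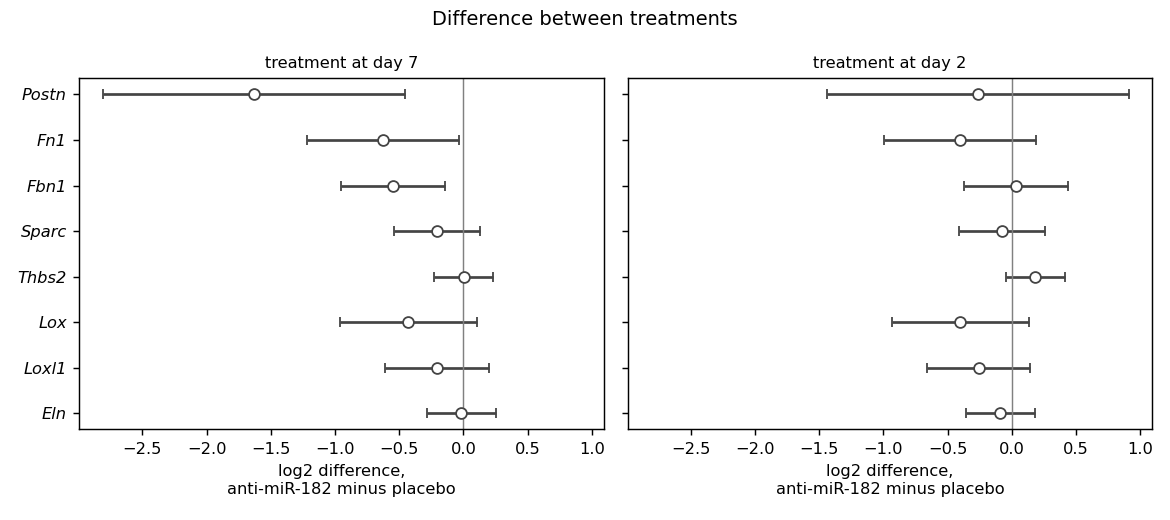
Fitted log2 difference, anti-miR-182 minus placebo, for each gene at day 7 (left) and day 2 (right), with 95% intervals; open markers did not pass an adjusted p under 0.05. All 16 markers are open, and at day 7 the intervals of Postn, Fn1 and Fbn1 lie below 0 before adjustment.

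At day 2, no member passed in limma, with adjusted p-values from 0.770 for Thbs2 to 0.983 for Fbn1. No gene passed over the whole array either (0% in each direction), while 1201 had an unadjusted p under 0.05, none of them a member. Fitted differences were lower with anti-miR-182 for 6 of 8, and the median was -0.17 beside 0.033 over all genes. Fn1 had -0.41 ± 0.27 and Lox -0.40 ± 0.25. Postn had -0.27 ± 0.55, with an interval from -1.44 to 0.91, which does not tell a lower from a higher level. Treatments overlapped for all 8 members, beside 8.06% of genes that were higher on every anti-miR-182 array and 4.24% that were lower. Without anti-miR-182 replicate 3 the Fn1 difference was 0.021, that of Sparc was 0.058 and that of Loxl1 was -0.07, so the sign for Fn1 and Sparc was set by that array. The Lox difference was -0.19 without placebo replicate 3 and -0.68 without placebo replicate 1. The Postn difference was -0.05 without placebo replicate 3 and -0.52 without placebo replicate 1. Both thus followed which placebo animals were counted.

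Averaged over both days, Fn1 differed by -0.52 ± 0.19, Lox by -0.41 ± 0.18 and Postn by -0.95 ± 0.39. These 3 had unadjusted p-values of 0.0188, 0.0338 and 0.0282 in limma, and an adjusted p of 0.888 each. The Postn value was -0.53 without placebo day 7 replicate 2, and the Fn1 value was -0.30 without anti-miR-182 day 2 replicate 3. With arrays left out in turn, the ranges were -1.37 to -0.53 for Postn, -0.65 to -0.30 for Fn1 and -0.55 to -0.31 for Lox. Without both arrays that stood apart, Postn came to -0.49, Lox to -0.25 and Fn1 to -0.22. Fbn1, Loxl1 and Sparc had -0.26, -0.23 and -0.14 with all arrays and -0.09, -0.05 and -0.0085 without those 2. Of the 8 members 7 were lower and 1 higher, with a median of -0.24 beside 0.015 over all genes, and 957 genes had an unadjusted p under 0.05. No gene passed in the lower direction (0%). The treatment difference at day 7 minus that at day 2 was also tested, and no member and no other gene passed (0% each way, 713 genes with an unadjusted p under 0.05). Fbn1 had -0.58 ± 0.27 and Postn -1.36 ± 0.77 in that test, both with an adjusted p of 0.999, so no treatment difference was shown to depend on the day. The Postn value in that test was -0.53 without placebo day 7 replicate 2 and -2.21 without placebo day 7 replicate 1, and the Fbn1 value ran from -0.82 to -0.44 with arrays left out in turn.

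Several members were higher at day 7 than at day 2. In placebo kidneys, 4 of 8 passed limma's test and were higher at day 7, beside 4.22% of all genes that passed higher and 23.7% that passed lower. Postn averaged 8.69 ± 1.68 at day 7 and 5.71 ± 0.48 at day 2 (SD, n = 3 each), a rise of 2.98 ± 0.55 (SE) on the log2 scale or 7.91-fold (adjusted p = 0.00215). Fbn1 averaged 8.70 ± 0.21 at day 7 and 7.68 ± 0.15 at day 2, a rise of 1.01 ± 0.19 or 2.02-fold (adjusted p = 0.00229). Lox rose by 0.96 ± 0.25 (adjusted p = 0.0131) and Fn1 by 0.94 ± 0.27 (adjusted p = 0.0218), each about the size of the Fbn1 rise. Those 4 genes and Loxl1 were higher on every day 7 array than on any day 2 array, 5 of 8, beside 8.38% of all genes. Loxl1 had 0.51 ± 0.19 and did not pass (adjusted p = 0.0555), and neither did Sparc at 0.28 ± 0.16, Thbs2 at 0.21 ± 0.11 or Eln at 0.10 ± 0.12.

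Under anti-miR-182, 3 of 8 members passed and were higher at day 7, beside 2.68% of all genes that passed higher and 24.9% that passed lower. Lox averaged 7.66 ± 0.38 at day 7 and 6.73 ± 0.22 at day 2, a rise of 0.93 ± 0.25 or 1.90-fold (adjusted p = 0.0155). Postn averaged 7.06 ± 0.085 at day 7 and 5.44 ± 0.15 at day 2, a rise of 1.62 ± 0.55 or 3.07-fold (adjusted p = 0.0413). Loxl1 rose by 0.56 ± 0.19 (adjusted p = 0.0389), although its days overlapped, since the lowest day 7 array read 7.505 and the highest day 2 array 7.507. Fn1 at 0.72 ± 0.27 (adjusted p = 0.0634) and Fbn1 at 0.43 ± 0.19 (adjusted p = 0.0983) did not pass, nor did Eln at 0.18 ± 0.12, Sparc at 0.15 ± 0.16 and Thbs2 at 0.03 ± 0.11. Days did not overlap for Postn, Fn1 and Lox, 3 of 8, beside 5.36% of all genes. Fbn1 and Fn1 thus passed in placebo and not under the inhibitor, but the difference between those rises is the day-by-treatment test above, which they did not pass. Without anti-miR-182 day 2 replicate 3, Fn1 under anti-miR-182 came to 0.30, Fbn1 to 0.19 and Loxl1 to 0.37.

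Markers of several other cell types also differed between the days. A marker score is the mean log2 signal of a cell type's markers minus the mean of all genes. Macrophage scores, from all 10 markers, lay between 0.79 and 0.90 at day 7 and between 0.30 and 0.55 at day 2 under anti-miR-182. In placebo they lay between 0.75 and 1.91 at day 7 and between 0.36 and 0.44 at day 2. The days did not overlap in either treatment, and of the 10 markers, 2 passed higher and 1 lower under anti-miR-182, and 4 passed higher in placebo. All marker calls here stand beside 2.68% of genes that passed higher and 24.9% lower with the inhibitor. The placebo shares were 4.22% and 23.7%. Proximal tubule markers were lower at day 7 for all 8 genes in both treatments, with 3 that passed under anti-miR-182 and 4 in placebo. Most genes of the array had that direction too. For placebo kidneys these were 13073 of 18166, and with the inhibitor 13886. Proximal tubule scores in placebo lay between 3.23 and 3.37 at day 7 and between 4.04 and 4.15 at day 2, with no overlap. Under anti-miR-182 they lay between 2.86 and 4.02 at day 7 and between 3.59 and 4.24 at day 2, with overlap. Fibroblast and myofibroblast markers, 11 of 12 measured, were higher at day 7 for 8 in placebo, where 1 passed, and for 6 under anti-miR-182, where none passed higher and 1 passed lower. Of the 6 platelet markers, 5 passed lower under anti-miR-182, and in placebo 2 passed lower and 1 higher. Podocyte markers were lower at day 7 for 4 of 4 in both treatments, and 2 passed in each. Injured tubule markers were mixed, with 3 higher and 5 lower in placebo and 6 higher and 2 lower under anti-miR-182. The part of these cell types in the rises of the members was not tested.

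**Figure D3:**
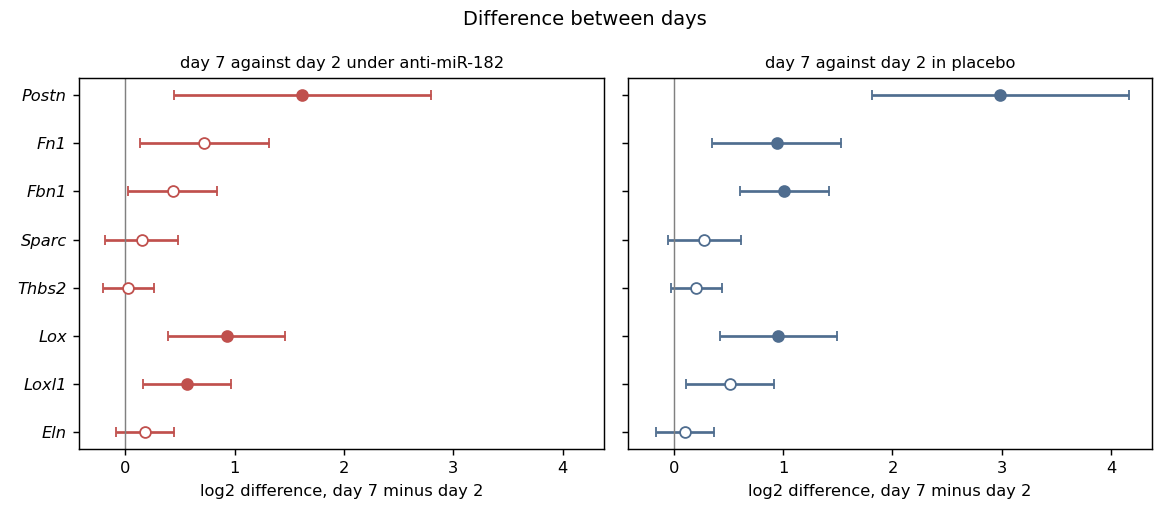
Fitted log2 difference, day 7 minus day 2, for each gene under anti-miR-182 (left) and in placebo (right), with 95% intervals; filled markers passed an adjusted p under 0.05. Postn, Lox and Loxl1 are filled on the left, and Postn, Fn1, Fbn1 and Lox on the right.

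The days appear to have been normalized apart, as 190 control rows hold no values on the day 2 arrays, so day and normalization cannot be told apart in these comparisons. The median of all genes moved by -0.18 between the days in placebo and by -0.21 under anti-miR-182. Relative to that shift, the members' differences in placebo were 3.16 for Postn, 1.19 for Fbn1, 1.13 for Lox, 1.12 for Fn1, 0.69 for Loxl1, 0.46 for Sparc, 0.39 for Thbs2 and 0.28 for Eln. Under anti-miR-182 they were 1.83 for Postn, 1.13 for Lox, 0.93 for Fn1, 0.77 for Loxl1, 0.64 for Fbn1, 0.38 for Eln, 0.36 for Sparc and 0.23 for Thbs2. All 8 were higher at day 7 in both treatments under each of the 3 scalings.

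The split of calls over all genes depended on the scaling. As deposited, 766 genes were called higher and 4314 lower in placebo, and 487 higher and 4515 lower under anti-miR-182. After quantile normalization of all arrays together, the calls were 1478 higher and 1436 lower in placebo and 1311 and 1384 under anti-miR-182. After centring on the array median they were 1480 and 1748 in placebo and 1131 and 1351 under anti-miR-182. Of the members, 7 passed in placebo after quantile normalization, all but Eln, and 6 after centring, all but Eln and Sparc. Under anti-miR-182, 5 passed with either scaling, Fn1 and Fbn1 being added to the 3 above.

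Single arrays bore on some of these calls. In placebo, Fn1 and Lox no longer passed without day 7 replicate 2 (adjusted p = 0.0770 and 0.0531), which left 2 members, Postn and Fbn1. Fn1 was also lost without day 2 replicate 2 or 3 and with the animal number as a covariate (adjusted p = 0.0646), and Lox without day 2 replicate 1. Every day 2 animal was numbered above 90, and at day 7 only 1 of each treatment was. Animal number and day are thus largely confounded, and fits with this covariate cannot separate them. Loxl1 passed in placebo without anti-miR-182 day 2 replicate 1 or 3 (adjusted p = 0.0292 and 0.0304), without placebo day 7 replicate 1 (0.0387), with array weights (0.0183) and without the dimmest 50% of genes (0.0486). Without placebo day 7 replicate 2, the Loxl1 difference in placebo was 0.34. Under anti-miR-182 the Postn call was lost without any 1 of the 6 arrays of that treatment (adjusted p from 0.0699 to 0.0917) and with the animal number as a covariate, where it was 0.76 (adjusted p = 0.341). It was also lost without placebo day 2 replicate 2 (adjusted p = 0.0534) and with robust eBayes (0.0816). The call held in limma without placebo day 7 replicate 2 (adjusted p = 0.00428) and without both arrays that stood apart (0.0141). With arrays left out in turn, the Postn rise under anti-miR-182 stayed between 1.54 and 1.67. The fit shares 1 estimate of the spread over the 4 groups, and the Postn SD was 1.68 in placebo at day 7. The Loxl1 call was lost without anti-miR-182 day 2 replicate 2 or 3, placebo day 2 replicate 1 or 3, or any day 7 array of its own treatment, without both arrays that stood apart (adjusted p = 0.0845) and with the animal number as a covariate (0.179). The Lox call was lost without anti-miR-182 day 7 replicate 3 (adjusted p = 0.0677) and with array weights (0.0536). Fn1 passed under anti-miR-182 without anti-miR-182 day 2 replicate 1 or 2 (adjusted p = 0.0492 and 0.0281), and Fbn1 without anti-miR-182 day 2 replicate 1 (0.0461). With arrays left out in turn, the differences under anti-miR-182 ran from 0.30 to 0.996 for Fn1 and from 0.19 to 0.58 for Fbn1, and the members that passed numbered from 0 to 4.

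Other matrix genes were followed in 4 lists written from general knowledge, with earlier results of these data known. Over all genes, 4.22% passed higher and 23.7% lower in placebo, and 2.68% higher and 24.9% lower under anti-miR-182, against which the counts of each list are read. Of the elastic fibre and microfibril list, 18 of 20 genes were measured. In placebo, 2 of them rose and 1 fell at day 7: Loxl2, another crosslinking enzyme, by 0.57 ± 0.15, Ltbp2, a microfibril-associated protein, by 0.48 ± 0.15, and Emilin2, an elastin-interface glycoprotein, fell by 0.70 ± 0.11. Under anti-miR-182, 2 rose and 3 fell, among them Efemp2, which encodes fibulin 4 and binds lysyl oxidase to elastin, with a rise of 0.69 ± 0.22, Ltbp2 with 0.45 ± 0.15, and Emilin2, which fell by 0.84 ± 0.11. The list's median was -0.05 in placebo and -0.12 under anti-miR-182, beside -0.18 and -0.21 for all genes. These rises and the fall of Emilin2 also passed after quantile normalization and after centring, whereas that of Fbln2, which fell by 0.37 ± 0.12 under anti-miR-182, did not.

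Of the other matricellular proteins, 16 of 20 were measured. In placebo, Sparcl1, a relative of Sparc, averaged 8.94 ± 0.31 at day 7 and 7.59 ± 0.31 at day 2 and rose by 1.35 ± 0.22 (adjusted p = 0.00110). Vtn, which encodes the adhesive protein vitronectin, rose by 0.88 ± 0.20, and Ccn4, a Wnt-induced secreted protein, rose by 0.67 ± 0.13, so 3 of the list rose and 1, Tnr, fell by 0.35 ± 0.12. Under anti-miR-182, Vtn rose by 0.76 ± 0.20 and Ccn4 by 0.48 ± 0.13, while Ccn5 fell by 0.41 ± 0.13. The falls of Tnr and Ccn5 did not pass under either other scaling. Sparc and its relative thus had placebo differences of 0.28 and 1.35 over the same interval, the first below the threshold and the second past it, and the difference between the 2 genes was not tested.

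Integrins and other matrix receptors had 15 of 18 genes measured. None rose in either treatment as deposited, while 3 fell in placebo and 6 under anti-miR-182. The 3 of 15 in placebo are near the 23.7% of all genes called lower, and the 6 of 15 under anti-miR-182 stand beside 24.9%. Itgb8 fell by 0.52 ± 0.10 in placebo, Itgb6 by 0.54 ± 0.14 and Itga3 by 0.64 ± 0.19. Itgb6 and Itgb8 encode beta chains of integrins that activate latent TGF-beta. Ddr2, a collagen receptor, fell by 0.63 ± 0.11 under anti-miR-182 and also passed under both other scalings. Under anti-miR-182 Itgb6 fell by 0.62 ± 0.14 (adjusted p = 0.00692), Itga9 by 0.51 ± 0.16 (0.0285) and Itgb8 by 0.38 ± 0.10 (0.0167). None of those 3 passed after quantile normalization, and only Itgb6 did after centring (0.0473). After quantile normalization 2 receptor genes were higher and 0 lower in placebo, and 1 higher and 1 lower under anti-miR-182. After centring, 2 were higher and 1 lower in placebo, and 1 higher and 2 lower under anti-miR-182, so the falls of Itgb8, Itgb6 and Itga3 depended on the scaling.

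TGF-beta is a main inducer of matrix genes. Of its ligands and receptors, 12 of 15 genes were measured, with 1 that rose and 1 that fell in placebo. Nrros, which holds latent TGF-beta on macrophages and microglia, rose by 0.62 ± 0.16, and Smad2, a signal transducer, fell by 0.39 ± 0.13. Smad2 was also the single call under anti-miR-182, and it did not pass under either other scaling. Quantile normalization gave 5 higher in placebo and 3 under anti-miR-182, with 0 lower in each, and centring gave 3 higher and 0 lower in each treatment.

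Between treatments, no gene of the 4 lists passed on either day. At day 7 the genes named by the smallest p-values included Sparcl1 at -0.57 ± 0.22, Fbln1, which encodes the elastic fibre protein fibulin 1, at -0.50 ± 0.23, Efemp1, which encodes fibulin 3, at -0.36 ± 0.16, and Ddr2 at -0.24 ± 0.11 (adjusted p = 0.999 each in limma). Of the elastic fibre list 13 of 18 were lower with anti-miR-182, median -0.08, and of the other matricellular list 6 of 16, median 0.08. Receptors were lower for 9 of 15 and TGF-beta genes for 9 of 12. At day 2, Tgfbi, which encodes a secreted integrin ligand, had 0.29 ± 0.14, Itga8, an integrin chain of mesangial cells, had 0.37 ± 0.15, and Itga3 had -0.44 ± 0.19, with adjusted p-values of 0.761, 0.754 and 0.754. The other list genes with the smallest p at day 2 were Tnn (0.34 ± 0.18), Smad3 (-0.23 ± 0.15), Ltbp4 (-0.22 ± 0.20), Tgfbr1 (0.20 ± 0.12) and Fbln2 (0.15 ± 0.12). At day 7 they were Itga4 (-0.30 ± 0.20), Nrros (-0.26 ± 0.16), Tgfb1 (-0.16 ± 0.15) and Tnr (0.15 ± 0.12). Over both days the list genes with the smallest p were Fbln1 (-0.29 ± 0.16), Tnn (0.27 ± 0.12), Itga3 (-0.22 ± 0.13), Itga8 (0.21 ± 0.11), Tgfbi (0.20 ± 0.10), Loxl2 (-0.19 ± 0.11), Tgfb1 (-0.18 ± 0.11) and Tgfb3 (-0.17 ± 0.15). None passed over both days either, nor in the treatment difference between days. There the same rule gave Sparcl1 (-0.75 ± 0.31), Itga3 (0.44 ± 0.27), Fbln1 (-0.43 ± 0.32), Ddr2 (-0.37 ± 0.16), Efemp1 (-0.35 ± 0.23), Smad3 (0.30 ± 0.22), Smad7 (-0.22 ± 0.17) and Ccn4 (-0.20 ± 0.18).

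Markers of the cells that the tissue could hold also differed between treatments alongside some members. Fibroblast and myofibroblast scores lay between 1.17 and 1.21 under anti-miR-182 at day 7 and between 1.24 and 1.75 in placebo. At day 2 they lay between 0.74 and 1.21 under anti-miR-182 and between 0.92 and 1.09 in placebo. The day 7 scores did not overlap between treatments, and 10 of the 11 markers were lower with anti-miR-182, none of them passing. Macrophage markers at day 7 were lower with anti-miR-182 for 10 of 10, none of them passing, beside 9127 of 18166 genes. Their scores lay between 0.79 and 0.90 under anti-miR-182 and were 0.75, 1.91 and 1.03 on placebo replicates 1, 2 and 3. The treatments thus overlapped, with placebo replicate 1 below all anti-miR-182 arrays. The order of the 3 placebo arrays is that of their Postn signals, 7.001, 10.36 and 8.71. On replicates 1, 2 and 3, smooth muscle and pericyte scores (0.91, 1.10 and 1.08) had that order too. So did injured tubule scores (1.17, 1.76 and 1.62). The other cell types did not, fibroblast and myofibroblast scores (1.38, 1.75 and 1.24) among them. Because 3 arrays allow few orders, some scores would share the Postn order without any link to it. The part of these cells in the members' differences was not tested.

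Urothelium scores, from 7 of 8 markers, lay between -0.97 and -0.80 under anti-miR-182 at day 7 and were -0.07, -0.16 and -0.87 on the placebo arrays. Smooth muscle and pericyte scores lay between 0.81 and 0.96 under anti-miR-182 and between 0.91 and 1.10 in placebo. Injured tubule scores at day 2 were 1.26, 1.37 and 0.52 under anti-miR-182 and between 1.45 and 1.64 in placebo. The value of 0.52 came from the array with the Fn1 signal of 8.05, replicate 3. Endothelium scores at day 2 lay between 1.11 and 1.53 under anti-miR-182 and between 0.98 and 1.04 in placebo. Platelet scores lay between -0.42 and -0.29 and between -0.54 and -0.49. Neither overlapped, and 6 of 6 markers of each were higher, beside 10669 of 18166 genes. At day 7, 7 of 8 proximal tubule and 4 of 4 podocyte markers were higher with anti-miR-182, beside 9039 of 18166 genes. None of these markers passed. As a check of the labelled tissue, Slc34a1, a phosphate transporter of the proximal tubule, lay at the 96.4th percentile of gene means. Whether the amount of any of these cells bears on the members was not tested.

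**Figure D4:**
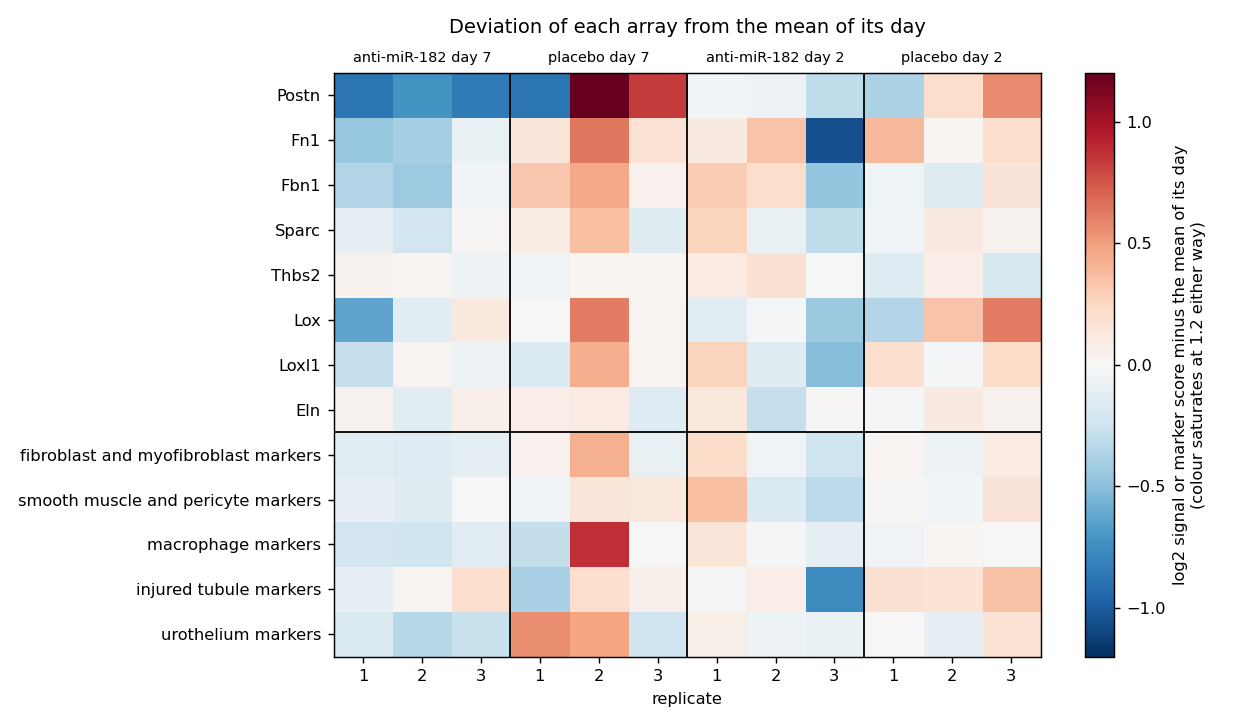
Deviation of each array from the mean of its day, for the 8 genes (log2 signal, top) and 5 marker scores (bottom); red is above and blue below the day mean, and colours saturate at 1.2. Placebo day 7 replicate 2 is the reddest day 7 column for 7 of 8 genes and for macrophage markers, and anti-miR-182 day 2 replicate 3 is the bluest day 2 column for 5 of 8 genes.

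Among themselves the members varied together on a few arrays. Thbs2 was the member for which placebo day 7 replicate 2 was not the highest of the 6 day 7 arrays. Anti-miR-182 day 2 replicate 3 had the lowest of the 6 day 2 arrays for 5 of 8. With the mean of each day subtracted, 16 of 28 pairs of members had a Pearson r above 0.5 over 12 arrays, with a median of 0.54 and a range from -0.31 to 0.84. Fn1 and Fbn1 made the closest pair. Without those 2 arrays, 4 of 28 pairs were above 0.5 and the median was 0.11. Placebo day 7 replicate 2 was singled out by its member signals, so leaving it out was bound to lower r between members. The lower median therefore does not test whether the members vary together. The points share a day and a normalization, and these values are descriptions.

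By the same measure, the genes most like the mean of the members were Soat1 (r = 0.94), Scimp (0.94), Col3a1 (0.94), Adam12 (0.92), Laptm5 (0.91), Kirrel1 (0.91), Bcat1 (0.91) and Mxra8 (0.91). Genes under provisional symbols (LOC, RGD, AABR or Rn with a number) were left out here and for Postn below. Each r is among the highest over all ranked genes, so its size partly reflects the selection. Col3a1 encodes a chain of fibrillar collagen III, Adam12 a metalloprotease, and Laptm5 a lysosomal protein of blood cells. Without the same 2 arrays r was 0.91 for Kirrel1, 0.86 for Scimp and between 0.55 and 0.76 for the other six. The genes most like Postn were Cd3d, a chain of the T cell receptor complex (r = 0.97), RT1-DMb, a class II antigen loading protein (0.97), and Il1rl1, the interleukin 33 receptor (0.95). Without the 2 arrays these had r of 0.89, 0.88 and 0.87 over 10 arrays.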

How the data were processed

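Total RNA of 12 rat kidneys (200 ng each, per the labels' protocols) was amplified and labelled with biotin. The authors deposited log2 signals. RMA is named in the submitters' processing notes, a method of background correction, normalization and summary of probes into 1 value per row, without a version. Values ran from 1.48 to 13.4 and were used as deposited. Groups come from the sample titles, since a description that mentions zero-hour biopsies contradicts the days in those titles.

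Of 36685 rows, 18511 had 1 gene symbol, 575 had several and 17599 are not listed in the annotation used. Where several rows named a gene (291 genes) the brightest by mean was kept, which left 18166 genes. Of the single symbols 18394 matched RefSeq by gene ID and 0 were updated. Arrays correlated at 0.974 or above within groups and at up to 0.988 among all 12, and no pair shared more than 41 exact values. The number of arrays limits precision. The 190 rows with no day 2 values were left out. That both days were normalized apart is inferred from these rows and not stated in the labels.

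Each gene was fitted with limma 3.58.1 (R 4.3.3) as 4 group means, from which eBayes gave 6 comparisons. The threshold was a p under 0.05 after Benjamini-Hochberg adjustment over all 18166 genes. The fit was tested on simulated data. Members, gene lists, markers and tests were chosen with earlier results of these data known. The text names every member, and of each list the genes that passed, up to 4 with the smallest p, or the 2 with the smallest p where none passed. It also names the 8 genes most like the mean of the members and the 3 most like Postn by Pearson r, with provisional symbols left out. As alternatives, days were fitted separately, eBayes was run robustly or with a trend, arrays were weighted, and genes in the dimmest 25% or 50% were dropped. Others were quantile normalization or median centring of the gene rows, the mean of a gene's rows, the animal number above 90 as covariate, an adjusted p under 0.1, each array left out, and both arrays that stand apart left out (anti-miR-182 day 2 replicate 3 and placebo day 7 replicate 2).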

Additional observations from a re-analysis of the deposited data

How the results depend on the processing

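No member passed a treatment comparison under any alternative run, and members that passed between days kept their direction in all of them. No paired analysis was possible because the groups share no replicate numbers in the labels. Over all genes, treatment at day 2 gave 1 call with an adjusted p under 0.1, each day fitted alone, array weights or the animal number, and 0 to 1 with arrays left out in turn. The same gave 0 to 3 at day 7, 0 to 4 over both days and 0 to 1 for the difference between days. The 1 call over both days, Mir182, became 0 without both arrays that stand apart. It also became 0 without the dimmest 25% or 50% of genes, but these filters remove the Mir182 row itself. They therefore do not test that call. Day 7 against day 2 called 3364, 2914 and 3228 genes in placebo and 2651, 2695 and 2482 under anti-miR-182 without the dimmest 50%, after quantile normalization and after centring, and 3198 to 5773 and 3069 to 5072 with arrays left out. The dimmest 50% filter tests fewer genes and leaves out Thbs2 and Eln. Members past the threshold numbered 7 in placebo after quantile normalization and 2 to 5 with arrays left out. Under anti-miR-182 they numbered 5 with an adjusted p under 0.1, quantile normalization or centring, 1 with the animal number and 0 to 4 with arrays left out.

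Differences near 0 changed sign. Without both arrays that stand apart, Fn1 and Sparc at day 2 came to 0.021 and 0.058, Eln at day 7 to 0.030, the treatment difference between days for Lox to 0.051 and Thbs2 with time under anti-miR-182 to -0.020. Eln at day 7 came to 0.0028 after quantile normalization and 0.00087 after centring, the treatment difference between days to 0.0083 for Lox after centring and for Loxl1 to -0.024 with array weights and -0.0041 after quantile normalization, and Thbs2 with time under anti-miR-182 to -0.026 with the animal number. With arrays left out in turn, day 2 differences ran from -0.68 to 0.021 for Fn1, -0.11 to 0.27 for Fbn1, -0.23 to 0.058 for Sparc and -0.18 to 0.026 for Eln. At day 7 they ran from -0.097 to 0.043 for Eln and -0.018 to 0.037 for Thbs2, and over both days from -0.097 to 0.0045 for Eln. The treatment difference between days ran from -0.65 to 0.052 for Fn1, -0.26 to 0.027 for Sparc, -0.24 to 0.25 for Lox, -0.14 to 0.25 for Loxl1 and -0.042 to 0.16 for Eln, and with time under anti-miR-182 from -0.020 to 0.075 for Thbs2. The cause was not tested. Thbs2 and Eln lie below the median of gene means, and their signal over background is not known from these values.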
